A study of Rattus norvegicus with 6 samples.

Results

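The 6 miRNA hairpins described here are those named miR-142, miR-223, miR-150, miR-155, miR-146a and miR-146b, which are known from blood cells and inflammation, as measured in rat epididymal sperm. They were chosen by name, as the genome-matched rows rno-mir-142, rno-mir-223, rno-mir-150, rno-mir-155, rno-mir-146a and rno-mir-146b, out of 379 genome-matched miRNA hairpins and 26562 rows in all. The choice was made with earlier results of these data known. All 6 passed the filter on low counts. Sperm came from wild type Wistar fathers aged 5 months. The HPD fathers had received a casein-rich high-protein diet for 2 to 3 months, starting when they were 10 weeks old, and the SD fathers a standard diet of equal calories. Each group had 3 libraries, each described by the study as coming from an individual rat, and the HPD libraries are called HPD2, HPD3 and HPD7 and the SD libraries CTRL1, CTRL2 and CTRL3. The comparison asks whether these RNAs differ between the sperm of HPD and SD fathers.

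miRNAs are short RNAs cut from a hairpin precursor. Loaded into an Argonaute protein, they pair with messenger RNAs mainly through their seed, bases 2 to 8 from the 5′ end, and lower their translation and stability. miR-142 is made throughout the blood lineages, miR-223 in neutrophils, monocytes and other myeloid cells, and miR-150 in mature lymphocytes. miR-155 is induced when macrophages and lymphocytes are activated. miR-146a is induced by NF-κB signalling and restrains it through TRAF6 and IRAK1, and miR-146b has the same seed as miR-146a. Mature spermatozoa are nearly silent in transcription and take up small RNAs while they pass through the epididymis, whose wall and lumen can also hold immune cells.

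The mature sequences are shown because the seed decides which miRNAs can be grouped, and because the resemblance of miR-146a and miR-146b bears on how their reads were told apart. The letters are those of RefSeq for the rat build GRCr8, which held 5 of the 6 miRNAs, and the seed is in capitals.
miR-142-5p: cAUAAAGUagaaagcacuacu
miR-142-3p: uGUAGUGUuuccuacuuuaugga
miR-223-3p: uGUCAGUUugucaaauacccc
miR-155-5p: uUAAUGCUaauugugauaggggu
miR-146a-5p: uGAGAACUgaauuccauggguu
miR-146b-5p: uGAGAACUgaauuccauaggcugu

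miR-146a-5p and miR-146b-5p shared the seed GAGAACU, which no other of the 724 mature rat miRNAs in that table carried. Counted from the 5′ end of miR-146a-5p, they differed at G18A and U21C, and miR-146b-5p was 24 bases long against 22. The seeds of the arms of miR-142, miR-223 and miR-155 were each found in no other miRNA of the table. The rows are named for hairpins and not for arms, so the 2 active arms of miR-142 cannot be told apart in the counts. Its hairpin is printed with the 5′ and then the 3′ arm in capitals, as is that of miR-155, whose change was among the largest of the 6.
miR-142 hairpin, GRCr8 chr10:73055104-73055190, plus strand: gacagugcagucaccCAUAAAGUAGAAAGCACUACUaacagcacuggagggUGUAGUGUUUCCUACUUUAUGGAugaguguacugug
miR-155 hairpin, GRCr8 chr11:37261114-37261178, plus strand: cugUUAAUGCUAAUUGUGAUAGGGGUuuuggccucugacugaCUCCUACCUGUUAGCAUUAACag

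In the RefSeq annotation of GRCr8, which was not joined to the counts by position because the reads were annotated on the older build Rnor_6.0, miR-142 lay within the span of the protein-coding gene Tspoap1 and miR-146b within that of C1h10orf95. miR-155 lay within its host noncoding gene Mir155hg, and miR-223 and miR-146a within long noncoding RNAs, miR-223 next to Vsig4, which codes for a complement receptor of macrophages. miR-150 overlapped no other gene. No pair of the 6 shares a host gene. The estimated counts of all 6 hairpins were exactly whole numbers, with no tolerance, in all 6 libraries, as were those of 179 of the 281 miRNA rows tested, and show no fraction of the kind that reads divided between similar RNAs leave, miR-146a and miR-146b included.

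Without rows nested in others, the HPD libraries held 5703625 to 7697588 reads and the SD libraries 4141018 to 7920000. miRNAs made up 13.3 ± 1.92% of the reads in HPD and 24.4 ± 4.14% in SD fathers (mean ± standard deviation of 3 libraries each). Of 15 germ cell miRNAs looked for, 14 were tested and had 33 reads or more in every library, with a summed level of 95337 to 130164 normalized counts in HPD and 79607 to 98833 in SD libraries. The labels give no batch, so a batch effect aligned with diet and the effect of diet cannot be told apart.

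The sperm of HPD fathers held less of 4 of the 6 leukocyte miRNAs, while 83 of the 281 miRNA rows tested (29.5%) were lower and the median log2 fold change of these rows was −0.87. The count was 2 of 6 without CTRL2, where 49 of 290 miRNA rows were lower. It was also 2 with the miRNA rows fitted on their own, where 46 of 277 were lower. miR-155 and miR-223 fell the most, by 4.32-fold and 4.30-fold relative to SD fathers, miR-146a fell 2.42-fold and miR-142 fell 2.02-fold. miR-146b and miR-150 missed the threshold, at −0.40 and −0.33 on the log2 scale. None of the 6 was called higher in HPD sperm.

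miR-155, the miRNA of activated leukocytes, was the least abundant of the 6. Its normalized read counts, which are the authors' counts divided by 1 size factor per library, were 75.3 in HPD2, 89.6 in HPD3 and 53.6 in HPD7, against 271 in CTRL1, 338 in CTRL2 and 303 in CTRL3. Every HPD library lay below every SD library, and the highest HPD value was under the lowest SD value by a wide margin. On the log2 scale HPD sperm differed by −2.11, with a standard error of 0.31 and an adjusted *p* of 0.00249 (quasi-likelihood test of edgeR, adjusted by Benjamini-Hochberg over 1858 rows of all RNA classes). Standard errors and adjusted values below come from this same edgeR fit unless another is named. These values rest on 65 to 103 reads per HPD library and 242 to 396 reads per SD library, the fewest among the 6 miRNAs.

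miR-223, the myeloid miRNA, had normalized counts of 240 in HPD2, 248 in HPD3 and 211 in HPD7, against 747 in CTRL1, 1252 in CTRL2 and 938 in CTRL3. The HPD libraries were close to each other, with a coefficient of variation of 8.33%, while the SD libraries varied by 26.1% and CTRL2 was the highest. The groups did not overlap, and the log2 fold change of −2.11 had a standard error of 0.28 (edgeR, adjusted *p* = 0.00188).

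miR-146a, the feedback inhibitor of NF-κB signalling, was the most abundant of the 6, with 2830, 3363 and 2333 normalized counts in HPD2, HPD3 and HPD7, against 7212, 6827 and 5840 in CTRL1, CTRL2 and CTRL3. All HPD values lay below all SD values, and the difference was −1.27 ± 0.22 on the log2 scale (± standard error; edgeR, adjusted *p* = 0.00504). Without CTRL2 it was −1.13 and the call ended (edgeR, adjusted *p* = 0.0550). miR-142, found in all blood lineages, was at 539, 535 and 590 normalized counts in HPD2, HPD3 and HPD7, against 1260, 1036 and 985 in CTRL1, CTRL2 and CTRL3. These groups did not overlap either, with a difference of −1.02 ± 0.26 on the log2 scale (± standard error; edgeR, adjusted *p* = 0.0340). This call was the least firm of the 4. It was kept without CTRL3 only, and ended without HPD2, HPD3, HPD7, CTRL1 or CTRL2, where the log2 fold change was −0.99 to −0.85 (edgeR, adjusted *p* from 0.0904 to 0.208).

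miR-146b, which shares the seed of miR-146a, had 2112, 2015 and 1205 normalized counts in HPD2, HPD3 and HPD7, against 2407, 2516 and 1860 in CTRL1, CTRL2 and CTRL3. The groups overlapped, since HPD2 and HPD3 were above CTRL3. The difference of −0.40 ± 0.26 on the log2 scale (± standard error) was not called (edgeR, adjusted *p* = 0.570). miR-150, the lymphocyte miRNA, had 1045, 1086 and 1252 normalized counts in HPD2, HPD3 and HPD7, against 1290, 1270 and 1605 in CTRL1, CTRL2 and CTRL3. HPD7 was just below CTRL2, so the groups did not overlap, but the log2 fold change of −0.33, with a standard error of 0.24, was not called (edgeR, adjusted *p* = 0.648). A miss of the threshold does not show that miR-146b and miR-150 were at the same level in both groups.

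**Figure D1:**
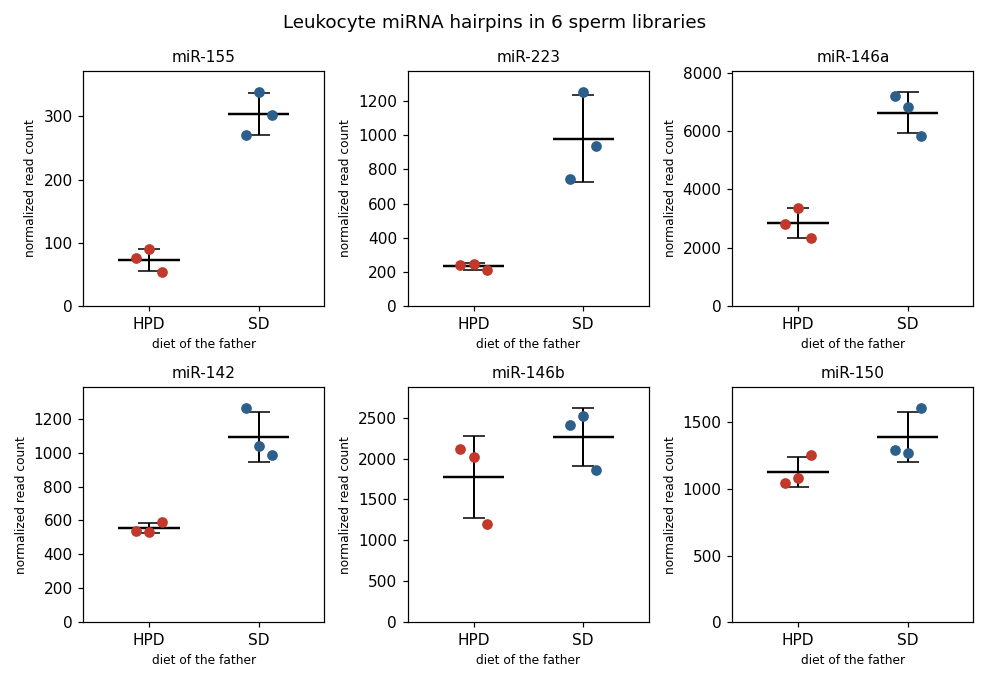
Normalized read counts of the 6 leukocyte miRNA hairpins, 1 panel per hairpin, each axis from 0. Points are libraries (HPD fathers left, SD fathers right), the horizontal line is the mean and the bar the standard deviation (n = 3 per group). The groups are apart in miR-155, miR-223, miR-146a and miR-142, nearly touch in miR-150 and overlap in miR-146b.

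In a small RNA library each read stands for 1 fragment, so counts of hairpins do not scale with gene length, although ligation favours some sequences over others. By mean normalized count the order was the same in HPD and in SD fathers, namely miR-146a, miR-146b, miR-150, miR-142, miR-223 and miR-155. In HPD fathers the means were 2842 ± 515, 1777 ± 498, 1128 ± 109, 555 ± 30.9, 233 ± 19.4 and 72.8 ± 18.1 normalized counts in this order (± standard deviation over libraries). In SD fathers they were 6626 ± 707, 2261 ± 351, 1388 ± 188, 1094 ± 146.4, 979 ± 255 and 304 ± 33.7 (± standard deviation over libraries). The libraries of miR-146b and miR-150 overlapped in HPD fathers, as did those of miR-142 and miR-223 in SD fathers, so the order of these neighbours does not exceed their spread there. Among the 379 genome-matched miRNA hairpins, miR-146a ranked 54 in HPD and 43 in SD fathers by mean normalized count, and miR-155 ranked 175 in HPD and 144 in SD fathers.

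These changes are to be read beside those of miRNAs in general. At an adjusted *p* of at most 0.05, 4 of the 6 were lower, against 29.5% of the miRNA rows and 119 of the 1858 rows of all populations (6.40%). Leaving out CTRL2 brought the count of the 6 to 2, leaving out CTRL3 left it at 4 and leaving out any other library gave 3. The miRNA rows called lower were 49 of 290 without CTRL2 and 81 of 296 without CTRL3. They were 60 of 302 without HPD2, 40 of 293 without HPD3, 51 of 294 without HPD7 and 57 of 284 without CTRL1. None of the 6 was higher with edgeR, DESeq2 or limma, nor at an unadjusted *p* under 0.05. Of the miRNA rows none (0%) was higher with edgeR or limma and 1 with DESeq2, while 2, 6 and 4 were higher at an unadjusted *p* under 0.05 with edgeR, limma and DESeq2. With edgeR, 1 was higher with upper quartile factors, 1 with no filter and 2 at a minimum mean count of 50. Leaving out HPD7, CTRL1 or CTRL3 gave 1 each. With the miRNA rows fitted on their own, however, 25 of them were higher and 46 lower, and 50 were higher at an unadjusted *p* under 0.05 (edgeR). At the thresholds of the study, which add a minimum fold change of 2 and a mean over 200 normalized counts, miR-142, miR-223 and miR-146a passed, against 20.6% of the miRNA rows, and miR-223 alone without CTRL2. With DESeq2, the tool of the study, miR-142 was at −0.99 on the log2 scale and missed the minimum fold change, so that 2 passed. miR-155 did not reach the count threshold, with a mean of 188 normalized counts. Every HPD library was below every SD library in 5 of the 6, which 45.9% of the miRNA rows also showed. The median log2 fold change was −1.14 for the 6, −0.86 for the miRNA rows without them and 0.03 for all rows. Relative to the median of all 281 miRNA rows, the log2 fold change stood at −1.24 for both miR-155 and miR-223, at −0.41 for miR-146a and at −0.15 for miR-142. It stood at 0.46 for miR-146b and 0.54 for miR-150. Of the miRNA rows, 10.3% had a lower log2 fold change than miR-155, 11.0% than miR-223, 33.1% than miR-146a, 44.1% than miR-142, 67.6% than miR-146b and 70.1% than miR-150.

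**Figure D2:**
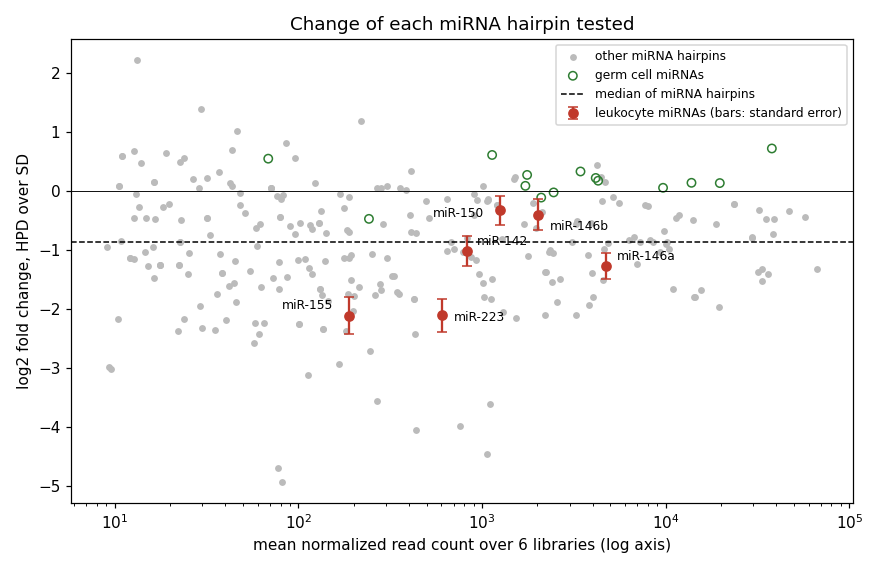
Log2 fold change (HPD over SD) of the miRNA hairpins tested against their mean normalized read count over the 6 libraries, on a log axis. Red points are the leukocyte miRNAs with their standard error, open green circles the germ cell miRNAs, and the dashed line the median of all miRNA hairpins (−0.87). miR-155 and miR-223 lie well below the dashed line, miR-142 lies close to it, and miR-146b and miR-150 lie above it.

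Which of the 6 were called changed with the scale. When the miRNA rows were fitted and normalized on their own, which sets miRNAs against each other and brings their median to −0.09, miR-155 and miR-223 were still lower in HPD sperm, with log2 fold changes of −1.36 and −1.35 and standard errors of 0.32 and 0.30 (edgeR, adjusted *p* = 0.0110 and 0.00922). miR-146a (−0.48, edgeR adjusted *p* = 0.129) and miR-142 (−0.19, edgeR adjusted *p* = 0.596) were no longer called there, so that 2 of the 6 were lower, against 16.6% of the 277 miRNA rows of that fit. miR-146b (0.36) and miR-150 (0.47) turned above 0 in it without passing the test, while 11 of 14 germ cell miRNAs were called higher in it. When counts were instead scaled to the summed reads of the germ cell miRNAs, the 4 calls were kept, and log2 fold changes were between −2.49 for miR-223 and −0.67 for miR-150. This scale lowered rows in general, with a median of −0.30 over all rows and 126 of 281 miRNA rows called lower, against 83 before. The kept calls are therefore not a separate check. miR-155 and miR-223 were called in all 12 other settings and without any of the 6 libraries.

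**Figure D3:**
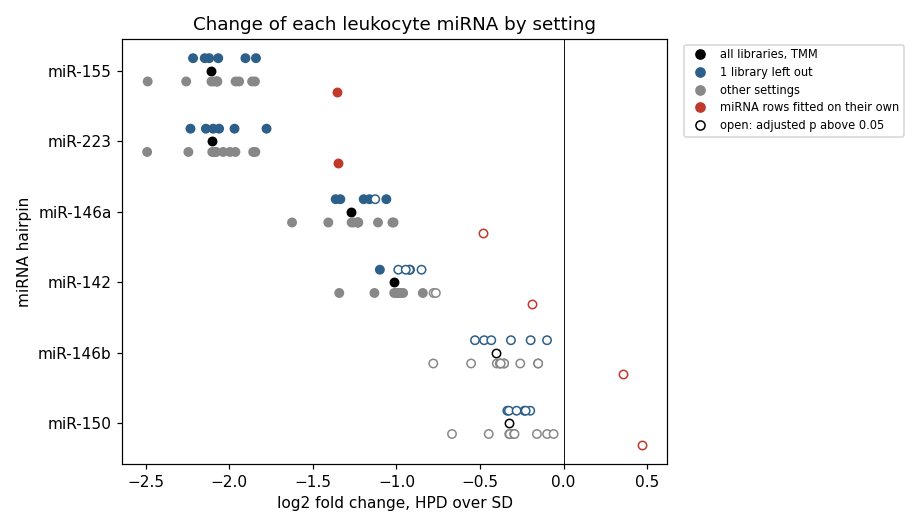
Log2 fold change of each leukocyte miRNA with all libraries (black), with 1 library left out (blue), with the miRNA rows fitted on their own (red) and in the other settings (grey). Filled points have an adjusted *p* of at most 0.05. miR-155 and miR-223 stay below 0 and called throughout, and miR-146b and miR-150 are open throughout and cross 0 only in the fit of miRNA rows on their own.

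As a share of the miRNA reads of a library, miR-223 was at 0.0240, 0.0277 and 0.0370% in HPD2, HPD3 and HPD7, against 0.0476, 0.111 and 0.0757% in CTRL1, CTRL2 and CTRL3. miR-155 held 0.00753, 0.0100 and 0.00939% in HPD2, HPD3 and HPD7, against 0.0173, 0.0300 and 0.0244% in CTRL1, CTRL2 and CTRL3. These 2 and miR-146a (0.356 ± 0.0653% in HPD and 0.512 ± 0.0814% in SD fathers) had lower shares in every HPD than in every SD library. How many of all miRNA rows did so on this scale was not computed, so nothing is concluded from this count. On normalized counts 45.9% of the miRNA rows were lower in every HPD library. The shares of miR-142, miR-150 and miR-146b overlapped between the groups, as for miR-150, which held 0.148 ± 0.0621% of miRNA reads in HPD sperm and 0.108 ± 0.0240% in SD sperm.

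Summed, the 6 miRNAs made up 0.103, 0.110 and 0.112% of all reads in HPD2, HPD3 and HPD7, against 0.243, 0.246 and 0.217% in CTRL1, CTRL2 and CTRL3. Per 100 reads of germ cell miRNAs there were 5.26, 5.91 and 5.92 reads of the 6 in the HPD libraries, against 13.3, 16.6 and 13.3 in CTRL1, CTRL2 and CTRL3. On both scales the groups were well apart. As a share of miRNA reads the 6 made up 0.684% in HPD2 (95% Wilson interval 0.667 to 0.701%), 0.819% in HPD3 (0.802 to 0.836%) and 0.989% in HPD7 (0.968 to 1.01%). The same share was 0.840% in CTRL1 (0.829 to 0.852%), 1.18% in CTRL2 (1.15 to 1.20%) and 0.930% in CTRL3 (0.912 to 0.950%). On this scale the groups overlapped, HPD7 being above CTRL1 and CTRL3. The intervals cover counting error only. miR-146a contributed 42.8 ± 2.59% of the summed reads in HPD sperm and 52.3 ± 2.12% in SD sperm. HPD minus SD in the share of miRNA reads was −0.152 percentage points with it and 0.00511 without it. With all 6 miRNAs it was −0.0548 without CTRL2, −0.0781 without HPD2 and −0.231 without HPD7. In such bulk samples fewer cells of a type and less RNA per cell cannot be told apart. Reads are also relative, so a fall of these miRNAs cannot be told apart from a rise of other RNAs.

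The proportion of miR-146a to miR-146b was lower in every HPD library. There were 1.34, 1.67 and 1.94 reads of miR-146a per read of miR-146b in HPD2, HPD3 and HPD7, against 3.00, 2.71 and 3.14 in CTRL1, CTRL2 and CTRL3. This ratio does not depend on the normalization, and the groups did not overlap. The log2 ratio was 0.71 ± 0.27 in HPD sperm and 1.56 ± 0.11 in SD sperm (± standard deviation), a difference of −0.85. The exact permutation test, two-sided over libraries, returned *p* = 0.1, the smallest that this test can give with 3 libraries against 3. It could not reach 0.05 whatever the size of the difference, so it does not decide whether the pair differed. The myeloid miR-223 and the lymphoid miR-150, set against each other, gave 0.229, 0.228 and 0.169 reads of miR-223 per read of miR-150 in the HPD libraries, against 0.579, 0.986 and 0.584 in CTRL1, CTRL2 and CTRL3. For miR-155 per read of miR-142 the ratio was 0.140, 0.167 and 0.0908 in the HPD libraries, against 0.215, 0.327 and 0.307 in the SD libraries. Both of these ratios were lower in every HPD library and were not tested. They follow from the fold changes given above for the single miRNAs and add no separate evidence.

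**Figure D4:**
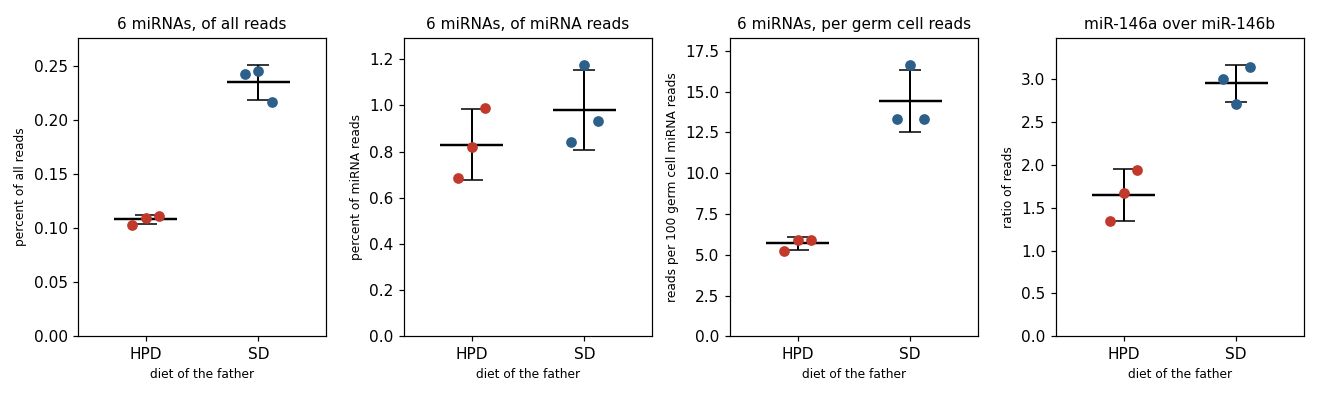
Summed reads of the 6 leukocyte miRNAs as a percent of all reads, as a percent of miRNA reads and per 100 reads of germ cell miRNAs, and the ratio of miR-146a to miR-146b reads. Points are libraries (HPD left, SD right), lines are means and bars standard deviations (n = 3 per group), with axes from 0. The groups overlap as a percent of miRNA reads and are apart in the other 3 panels.

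Other miRNAs known from immune cells were called lower in part, with counts to be set against the 29.5% of all miRNA rows. Of 12 hairpins linked to lymphoid cells, 11 were tested and 6 were lower in HPD sperm, with a median log2 fold change of −1.04. This count was lower without any one of the 6 libraries. It was 0 without HPD3, 0 without HPD7, 2 without CTRL1, 2 without CTRL2, 4 without HPD2 and 5 without CTRL3. It was also 2 with no filter and 2 with miRNA rows on their own. All miRNA rows called lower also fell from 83, to 40 without HPD3, 51 without HPD7, 57 without CTRL1 and 49 without CTRL2. In these same fits the median of the 11 lymphoid hairpins stayed between −1.01 and −0.81. miR-16, the most abundant of them and a repressor of cell cycle genes, had a value of −0.48, and miR-29a, which restrains interferon gamma in mouse T cells, one of −0.68, and neither passed. Named after their values were seen, the 6 were miR-342 (−1.04) and 5 hairpins of the miR-181 family, which tunes the sensitivity of the T cell receptor, from −1.78 for miR-181d to −1.37 for miR-181a-1 and miR-181a-2. The remaining miR-181 hairpin of the list, miR-181c, also named after its value was seen, had −0.66 and was not called (edgeR, adjusted *p* = 0.476). miR-181a-1 and miR-181a-2 give the same main mature miRNA, as do miR-181b-1 and miR-181b-2. Reads of that shared miRNA cannot be told apart within a pair, and the 6 calls hold both pairs. The counts were not identical, with mean normalized counts of 281 for miR-181b-1 and 325 for miR-181b-2, and of 2212 for miR-181a-1 and 2236 for miR-181a-2.

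Of 14 hairpins linked to the response of macrophages, 2 were lower, a smaller share than the 29.5% of all miRNA rows, with a median of −0.73. Over the other settings the count was between 2 and 6, the highest when scaled to germ cell miRNAs. The 2 were miR-221 (−1.88) and miR-222 (−2.06), also named after their values were seen, a pair from 1 cluster that represses the cell cycle inhibitor p27 and is expressed in many cell types. miR-21 (−0.45) and miR-125b-2 (−0.87), the most abundant of this list, did not pass. The cluster of miR-23a, miR-27a and miR-24-2, which is active in myeloid cells and in many other tissues, was lower in 3 of 3 hairpins, with −1.65 for miR-23a and −1.50 for miR-24-2, against 29.5% of all miRNA rows. The count was 2 without HPD3, HPD7, CTRL2 or CTRL3 and with upper quartile factors, and 1 with miRNA rows on their own.

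Hairpins known from other cell types of blood, vessels, connective tissue and epithelium are given with their levels. Of 3 erythroid miRNAs 1 was lower, near the 29.5% of all miRNA rows, with a summed level of 620 to 695 normalized counts in HPD and 1113 to 1646 in SD libraries. This was miR-451 (−1.11), the miRNA of red blood cells, while miR-144 from the same cluster had −0.53. The erythroid count was still 1 without CTRL3 and was 0 without any other library, with upper quartile factors, with no filter and with miRNA rows on their own. The endothelial miR-126a, the one hairpin of its list that was tested, fell by 2.11 on the log2 scale, at 1012 to 1732 normalized counts in HPD and 3076 to 6392 in SD libraries, and was called in all 12 other settings and without any of the 6 libraries.

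Of 4 miRNAs of stroma and smooth muscle 2 were lower, miR-199a (−1.79) and, named after its value was seen, miR-214 (−2.03), against 29.5% of all miRNA rows. The count was 1 without HPD3, without HPD7 or without CTRL2. It was 3 with DESeq2, with library size as the only scaling, at a minimum mean count of 50 and when scaled to germ cell miRNAs. In these settings 102 of 281, 102 of 281, 95 of 212 and 126 of 281 miRNA rows were lower, in this order. The list of stroma and smooth muscle had a summed level of 20744 to 65653 normalized counts in HPD and 39679 to 91053 in SD libraries. Its most abundant hairpin, miR-143, had −0.34 and did not pass. Of 7 epithelial miRNAs 1 was lower, miR-203a (−1.40), named after its value was seen, a smaller share than the 29.5% of all miRNA rows. Without any one of the 6 libraries the epithelial count was 0, as it was with RLE or upper quartile factors, with no filter and with nested rows left out, and with miRNA rows on their own 0 were lower and 1 was higher. The epithelial count was 3 when scaled to germ cell miRNAs. miR-200b and miR-200c, keepers of the epithelial state, had −0.56 and −0.46, and the epithelial list summed to 26069 to 51100 normalized counts in HPD and 39921 to 77405 in SD libraries.

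Of all these lists, 1 lymphoid hairpin had a library at 0 reads, and no other listed hairpin of the table did. The part of these cell types in the change of the 6 leukocyte miRNAs was not tested. The medians of these lists were below 0 on every scale used, except that with miRNA rows on their own the erythroid median was 0.22 and the epithelial median 0.12. Of 14 germ cell miRNAs none passed with edgeR, DESeq2 or limma in either direction, and at an unadjusted *p* under 0.05 there were 1, 1 and 2 higher and 0 lower. At an adjusted *p* of at most 0.05, 1 was higher with no filter, at a minimum mean count of 50 and without CTRL3, and 11 were higher with miRNA rows on their own (edgeR). Their median was 0.16, but −0.18 when scaled to their own sum and 0.95 with miRNA rows on their own. Among them miR-34b, of a family that germ cells need for spermatogenesis in mice, had 0.72, and miR-741 had 0.14.

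**Figure D5:**
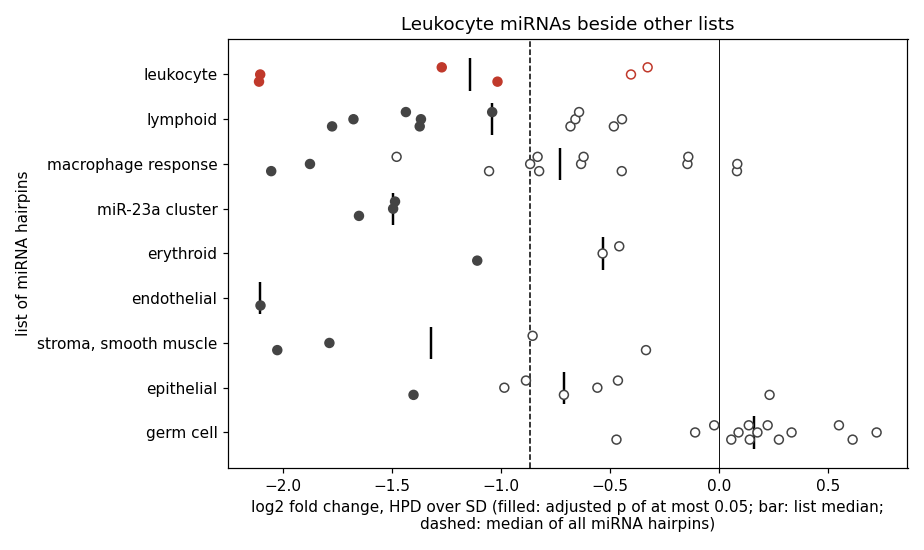
Log2 fold change (HPD over SD) of the hairpins tested in the leukocyte list (red) and in 8 other lists (grey), 1 point per hairpin. Filled points have an adjusted *p* of at most 0.05, short bars are list medians and the dashed line is the median of all miRNA hairpins. The leukocyte points run from −2.11 to −0.33, and those of the germ cell list lie around 0 with none filled.

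The miRNAs whose levels followed the 6 most closely over the libraries were sought among 141 other hairpins with a mean normalized count above 200, by the Pearson correlation r of log2 TMM-scaled counts over the 6 libraries. These correlations are a description with no test, since they share the libraries and the difference between the diets. miR-142 was most like miR-451 (r = 0.987), which was at 562 ± 14.2 normalized counts in HPD sperm and 1176 ± 243 in SD sperm. miR-223 was most like miR-23a (r = 0.994), at 5379 ± 277 in HPD sperm and 16490 ± 1777 in SD sperm. miR-155 was most like miR-195 (r = 0.997), a member of the miR-15 family, at a log2 fold change of −1.56 ± 0.25 (± standard error). miR-146a was most like miR-181b-1 (r = 0.991), at a log2 fold change of −1.68 ± 0.32 (± standard error). miR-146b was most like let-7i (r = 0.913) and miR-150 most like miR-374 (r = 0.815), neither of which passed the test. Among the 6 themselves, r was 0.984 for miR-223 and miR-155, 0.979 for miR-155 and miR-146a, 0.754 for miR-146a and miR-146b, and −0.07 for miR-150 and miR-146b.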

How the data were processed

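Small RNA of epididymal sperm from 3 HPD and 3 SD rats was sequenced after a hypotonic shock meant to remove somatic cells. The authors trimmed adapters, discarded reads under 15 nucleotides and annotated the rest with SPORTS1.0 against Rnor_6.0 files. The submitters' notes also name Bowtie, DESeq, DESeq2 and the mouse build mm9. The authors deposited estimated counts per small RNA and, in a further table, a normalized count for each, which is a signal that equals the estimated count, truncated to an integer, over a size factor of the library (100% of values within a relative tolerance of 1e-06).

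Column names gave the diet but did not tie a column to a numbered sample. The row of snoRNA, a total that names no RNA, was 1.25 to 1.45% of reads in HPD and 0.293 to 0.536% in SD libraries and was left out. After rounding, the counts entered the quasi-likelihood test of edgeR 4.0.16 (R 4.3.3) with TMM factors. filterByExpr (minimum count 10, minimum total 15) left 1858 rows, over which *p* was adjusted by Benjamini-Hochberg. The procedure was tested on simulated data with changes of random rows in both directions. That setting does not mimic a shift of a whole RNA class, so it cannot show how the procedure handles one. Standard errors were derived from the F statistic. Correlations used log2 TMM-scaled counts with a prior count of 2. Alternatives used DESeq2 1.42.0, limma 3.58.1 on log2 of normalized counts plus 1 or 10, other factors, filters and scalings, and each library left out. RNAs named by rule besides the 6 are the 2 with the highest mean count of each list and the hairpin most correlated with each of the 6. Others are marked as named after their values were seen. The members and lists were chosen with earlier results of these data known. Figures were drawn with matplotlib 3.10.9.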

Additional observations from a re-analysis of the deposited data

How the results depend on the processing

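The directions of miR-155, miR-223, miR-146a and miR-142 were negative in all 12 alternatives and without any library. With miRNA rows on their own, 2 of the 6 were lower instead of 4, 1 instead of 3 passed the thresholds of the study (2 with DESeq2), miR-146a (−0.48) and miR-142 (−0.19) lost the call, and miR-150 (0.47) and miR-146b (0.36) changed sign without passing. miR-142 also lost it with upper quartile factors (−0.78) and no filter (−0.76). Leaving out 1 library gave 2 to 4 of the 6 lower, while 40 to 81 of all miRNA rows were lower. It gave 1 to 3 of the 6 past the thresholds of the study. Both counts of the 6 were lowest without CTRL2, where miR-146a had a log2 fold change of −1.13 (adjusted *p* = 0.0550 from edgeR). The ranges were −1.10 to −0.85 for miR-142, −1.36 to −1.06 for miR-146a, −2.23 to −1.78 for miR-223, −2.22 to −1.84 for miR-155, −0.34 to −0.20 for miR-150 and −0.53 to −0.10 for miR-146b. Without miR-146a, the most abundant of the 6, HPD minus SD was −0.0502 instead of −0.127 percentage points of all reads, 0.00511 instead of −0.152 percentage points of miRNA reads and −3.64 instead of −8.73 reads per 100 germ cell miRNA reads. The log2 ratio of miR-146a to miR-146b differed by −0.98 to −0.71 with 1 library left out. Over all rows the log2 fold change had a median of 0.03, and 0.28 with upper quartile factors, 0.69 with no filter and −0.30 when scaled to germ cell miRNAs. Calls over all rows were 74.4% lower, and 51.7% with upper quartile factors, 56.3% unfiltered and 57.4% at a minimum mean of 50. The cause of these shifts was not tested. No paired analysis was possible because each library came from a different rat and nothing ties an HPD rat to an SD rat. The HPD columns also carry a replicate number beside another number, and neither marks such a pair.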
